A study of Mus musculus with 16 samples.

Results

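The comparison described here set the 2 MC38 tumors labelled aPD-1 responder (R) against the 6 labelled aPD-1 non-responder (NR). Members were chosen by label alone, which gave 8 of the 16 tumors of the bulk RNA-seq experiment, and the other 8 tumors came from mice given control IgG. MC38 is a mouse colorectal carcinoma line, and its cells were injected under the skin of the right flank of female C57BL/6 mice aged 6 to 8 weeks. Mice whose tumor measured 150 to 250 mm3 on day 16 received 200 µg of an antibody blocking the checkpoint receptor PD-1, or of control IgG, on days 16 and 20, and tumors were taken on day 21. RNA came from 2 sections of 100 µm cut from the frozen part of each tumor, and each library is 1 tumor of 1 mouse. The study had divided the aPD-1 tumors by staining CD8 T cells in the fixed part of the same tumors, so the label is itself a measure of T cell content and not of tumor shrinkage. Responders are called 15 and 16 and non-responders 9 to 14, after the mouse numbers, and both responders are given separately throughout.

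The 8 aPD-1 libraries held 29062839 to 39948874 counts, and the total did not separate the groups (two-sided exact permutation test over tumors, p = 0.714). Genes with at least 10 counts numbered 17296 in responder 15 and 17093 in responder 16, against 15693 to 16213 in the non-responders (exact permutation p = 0.0357, the smallest that 2 against 6 tumors allow, and 0.0595 after adjustment over 5 library properties). Mitochondrially encoded genes took 2.85% and 3.25% of the counts of responders 15 and 16 and 2.54% to 6.00% of those of the non-responders (exact permutation p = 0.857). Non-responders 9 and 14, like IgG tumor 1, stood apart with shares between 5.73% and 7.601%. In IgG tumor 3 a single gene took 20.4% of the counts.

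PD-1 is an inhibitory receptor on activated T cells, and antibodies that block it release T cells that recognise the tumor. CD8 T cells kill through granzymes and perforin and secrete interferon gamma, which raises antigen presentation and chemokines in the cells around them. Where T and B cells gather in a tissue they can form lymphoid aggregates, which are organised by lymphotoxin, by the chemokines CXCL13, CCL19 and CCL21, and by high endothelial venules, the vessels through which naive lymphocytes enter lymph nodes.

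The responders carried more RNA of T cells, B cells and lymphoid tissue, and far more genes were higher than lower in them. Of 18251 genes tested, 2286 (12.5%) were called higher in responders and 121 (0.663%) lower, at an adjusted p under 0.05 and a fold change over 2 (edgeR, quasi-likelihood test, p adjusted after Benjamini and Hochberg). By adjusted p alone, 2806 (15.4%) were higher and 793 (4.34%) lower. The counts of list members given below stand beside these shares over all genes. The 2 responders exceeded every non-responder for 3921 genes (21.5%) and fell under every one for 2403 (13.2%), and 2194 of the genes called higher and 116 of those called lower were among these. Many of the higher genes were scarce in non-responders, with a mean under 0.5 CPM (counts scaled to a common library total) for 1013 of them. A gene could enter the test through the 2 responders alone, and with a filter of at least 10 counts in at least 8 tumors 1515 genes were called higher. Fold changes were large in 1 direction: the median log2 fold change was 2.68 over the genes called higher, of which 342 exceeded 5, and -1.36 over those called lower, of which 14 lay under -2. Of 429 immunoglobulin segments, pseudogenes included, 111 were tested and 110 called higher, and of 270 T cell receptor segments 26 were tested and 22 called higher. A segment that passed the filter on low counts through the responders alone had to differ, so nothing is read from these shares. With the filter on 8 tumors 6 immunoglobulin segments were tested and 6 called, and 4 T cell receptor segments were tested and 3 called. In bulk tissue more cells of a type and more RNA per cell cannot be told apart. Nor can RNA of the tumor be told apart from RNA of other tissue in the sections, so where the lymphoid RNA lay was not tested.

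Responder 15 departed further than responder 16. Over the genes called higher, the median difference from the mean log2 CPM of the non-responders was 2.90 in responder 15 and 1.98 in responder 16, and responder 15 was the higher of the pair for 2008 of the 2286. Over the genes called lower the medians were -1.36 and -1.19. With responder 15 as the only responder, edgeR called 2392 genes higher and 202 lower, and with responder 16 alone 895 and 37. Of the higher calls 832 were shared, 34.8% of those with responder 15 and 93.0% of those with responder 16. Of the lower calls 17 were shared, 8.42% and 45.9%. These fits share the same non-responders, and a lone responder is assumed to vary like the other tumors.

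**Figure D1:**
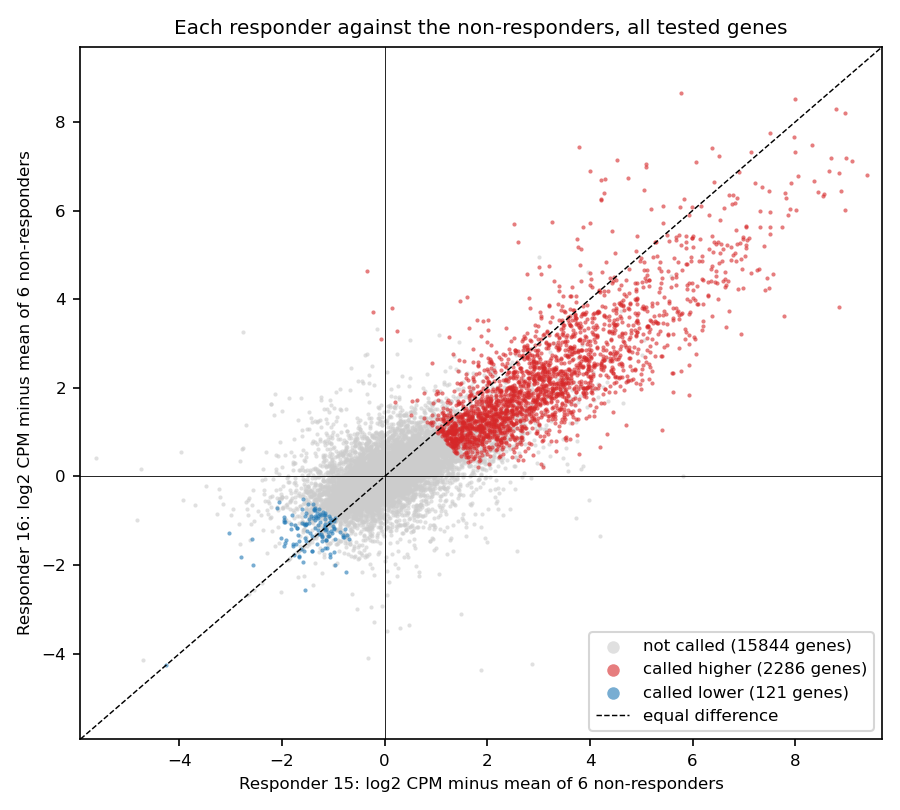
Each point is 1 of 18251 tested genes, placed by its log2 CPM in responder 15 (x axis) and responder 16 (y axis) minus the mean log2 CPM of the 6 non-responders, with the dashed line where both differences are equal. Most of the 2286 genes called higher (red) lie to the right of zero and below the dashed line, and the 121 called lower (blue) form a small group below zero on both axes.

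Among protein-coding genes averaging 100 counts or more and higher in each responder than in any non-responder, the 10 called with the smallest p were Clec2i, Traf3ip3, Trp53inp1, Dgka, Ralgps2, Atp2a3, Slamf6, Siglecg, Tbc1d10c and Fcrla. Clec2i (chr6:128887588-128898167, GRCm38), which encodes a C-type lectin, stood at 38.5 and 20.4 CPM in responders 15 and 16 and at 0.942 to 1.73 in the non-responders, with a log2 fold change of 4.55 ± 0.23 (SE, adjusted p = 9.14e-09). Dgka, whose diacylglycerol kinase restrains T cell receptor signaling, was at 97.6 and 79.8 CPM against 7.24 to 9.80. Slamf6, a receptor of lymphocytes, was at 41.4 and 25.5 against 2.58 to 4.27. Siglecg and Fcrla, both known from B cells, differed most among the 10, with log2 fold changes of 6.13 ± 0.37 and 6.73 ± 0.41. In all 10 genes responder 15 was the higher of the pair, and the IgG tumors lay at or near the levels of the non-responders, for example at 0.861 to 1.32 CPM for Clec2i and 5.396 to 10.7 for Dgka.

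T cell genes were higher in both responders by a like amount. 14 of 14 T cell receptor and coreceptor genes were called higher, with a median log2 fold change of 3.57 beside 0.02 over all genes tested, and median differences of 3.61 in responder 15 and 3.60 in responder 16. Their summed level was 357 to 384 CPM in the responders, 20.4 to 51.2 in the non-responders and 13.4 to 41.7 in the IgG tumors. Cd8a (chr6:71373427-71379173), which encodes a chain of the CD8 coreceptor, was at 59.7 and 59.2 CPM against a lowest, median and highest of 4.06, 6.90 and 9.97 in the non-responders, and Cd8b1 at 26.6 and 29.5 against 1.37, 2.06 and 3.69. The groups did not overlap for either chain, and because CD8 staining set the labels these values check the labels and are no separate finding. Both chains are counted among the 14, and other genes that CD8 T cells make are not independent of the labels either. Cd4, the coreceptor of helper and regulatory T cells, was at 44.8 and 35.4 CPM against 0.881, 1.95 and 2.996, a log2 fold change of 4.35 ± 0.36 (edgeR adjusted p = 3.09e-07). Cd3e, a signaling chain of the T cell receptor complex, was at 14.1 and 14.3 against 0.677, 0.957 and 2.103 CPM. All 14 genes were also called with either responder as the only one.

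Of 12 T cell receptor signaling genes, 11 were called higher (median log2 fold change 3.65), and 10 with either responder alone. The kinase gene Lck stood at 57.2 and 49.2 CPM in the responders and at 2.64, 3.76 and 6.25 as the lowest, median and highest non-responder, and the adaptor gene Lat at 30.9 and 27.3 against 1.02, 1.66 and 2.11. Fyn, a kinase that many cell types make, passed by adjusted p only, with a log2 fold change of 0.67 ± 0.14, and its adjusted p without responder 15 was 0.0923. Of 9 genes of naive and recirculating T cells, 8 were called higher, with a median log2 fold change of 2.03 and median differences of 2.27 and 1.92. Ccr7 (chr11:99144196-99155077), the receptor for CCL19 and CCL21, was at 44.8 and 38.8 CPM against 2.11, 3.61 and 6.39 in the non-responders. In the fits with a single responder, 8 of the list were called for 15 and 7 for 16. The groups did not overlap for Ccr7, whose log2 fold change was 3.42 ± 0.30. Lef1, a transcription factor of naive T cells, did not pass (log2 fold change 1.00 ± 0.43, adjusted p = 0.118); non-responder 14 was its highest non-responder at 14.8 CPM, and without it the adjusted p was 0.0375.

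Fewer genes of killing were called, and they divided the responders. Of 16 tested, 5 were called higher (Gzma, Gzmk, Ccl5, Nkg7 and Klrd1), beside 12.5% over all genes. With the filter on 8 tumors, which the 2 responders cannot pass alone, 15 were tested and 4 called. Over the 16 genes the median difference was 0.09 in responder 15 and 1.54 in responder 16. Responder 16 was the higher of the pair for all 16. Gzmb, the granzyme that starts cell death in targets, was at 20.6 CPM in responder 15 and 66.6 in responder 16, with the non-responders at 12.2, 22.9 and 34.3 (lowest, median and highest). Perforin, Prf1, was at 9.64 and 21.5 against 5.62, 9.12 and 15.5, and Ifng, interferon gamma itself, at 2.01 and 7.396 against 0.729, 1.93 and 3.37. For these 3 genes responder 15 lay inside the range of the non-responders and responder 16 above it. None of the 3 passed (adjusted p of 0.312, 0.493 and 0.173 in edgeR), and without responder 16 their log2 fold changes were -0.25, -0.09 and -0.05. With responder 15 as the only responder no killing gene was called, and with responder 16 alone 3 were. Gzma was called (log2 fold change 2.36 ± 0.64, adjusted p = 0.015) through responder 16, at 20.1 CPM beside 2.36 in responder 15 and at most 3.46 in a non-responder, and its adjusted p without responder 16 was 0.972. The chemokine gene Ccl5 was above all non-responders in both, at 45.9 and 82.2 against 14.1 to 31.1 CPM, with adjusted p of 0.0219 in full and of 0.0686 and 0.305 without responders 15 and 16, and of 0.0561 without non-responder 10. Klrd1, a receptor of killer cells, was lost without responder 15 or 16 or non-responder 10 or 14 (adjusted p of 0.0996, 0.305, 0.0672 and 0.0564), and Gzmk and Nkg7 were lost without responder 16 (0.239 and 0.136). The granzyme genes Gzmc, Gzmd, Gzme, Gzmf and Gzmg lie in 1 cluster of close relatives, whose reads may be divided between them with some uncertainty, and in all 5 responder 15 was below the median non-responder.

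Natural killer (NK) cell genes showed the same order of the responders. Of 7 tested, 5 were called higher, beside 12.5% over all genes. The median log2 fold change was 1.39, the median differences were 0.93 and 1.93, and responder 16 was the higher for all 7. Ncr1, an activating receptor that marks NK cells, was at 2.07 and 3.43 CPM against 0.547, 1.17 and 1.53 (log2 fold change 1.32 ± 0.42, adjusted p = 0.0346). Its adjusted p was 0.108 and 0.348 without responders 15 and 16, and 0.0722, 0.0504 and 0.0601 without non-responders 10, 12 and 14. No NK gene was called with responder 15 alone and 3 were with responder 16 alone.

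Of 9 genes listed with the inhibitory receptors, among them the transcription factor Tox and the ectoenzyme Entpd1, 5 were called higher (the receptors Btla, Cd160, Tigit and Ctla4, and Tox), with a median log2 fold change of 1.45 and median differences of 1.55 and 1.69. Pdcd1, which encodes PD-1, was at 7.36 and 9.76 CPM in the responders and at 1.02, 3.81 and 7.92 in the non-responders, so the groups overlapped and it did not pass (adjusted p = 0.176). Btla, an inhibitory receptor that B cells carry as well as T cells, was at 149 and 60.1 against 1.02 to 2.01 (log2 fold change 6.05 ± 0.37). Havcr2, which encodes TIM-3 and is also made by myeloid cells, was at 16.7 and 27.9 against 18.4 to 26.9, so responder 15 lay below and responder 16 above them, and its log2 fold change was -0.02 ± 0.19. Of 8 regulatory T cell genes, 6 were called higher, with a median log2 fold change of 1.35 and median differences of 1.42 and 1.29. Foxp3, the defining transcription factor of these cells, was at 5.59 and 3.97 CPM against 0.440, 1.33 and 1.65, with a log2 fold change of 1.93 ± 0.38 (adjusted p = 0.00153, and 0.0851 without responder 15). The call of Ctla4 was lost without responder 15 (adjusted p = 0.0583), and that of Tigit without responder 15, responder 16 or non-responder 10 (0.281, 0.0673 and 0.0506). With responder 15 alone 4 genes of the inhibitory receptor list and 5 regulatory genes were called, and with responder 16 alone 3 and 2.

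**Figure D2:**
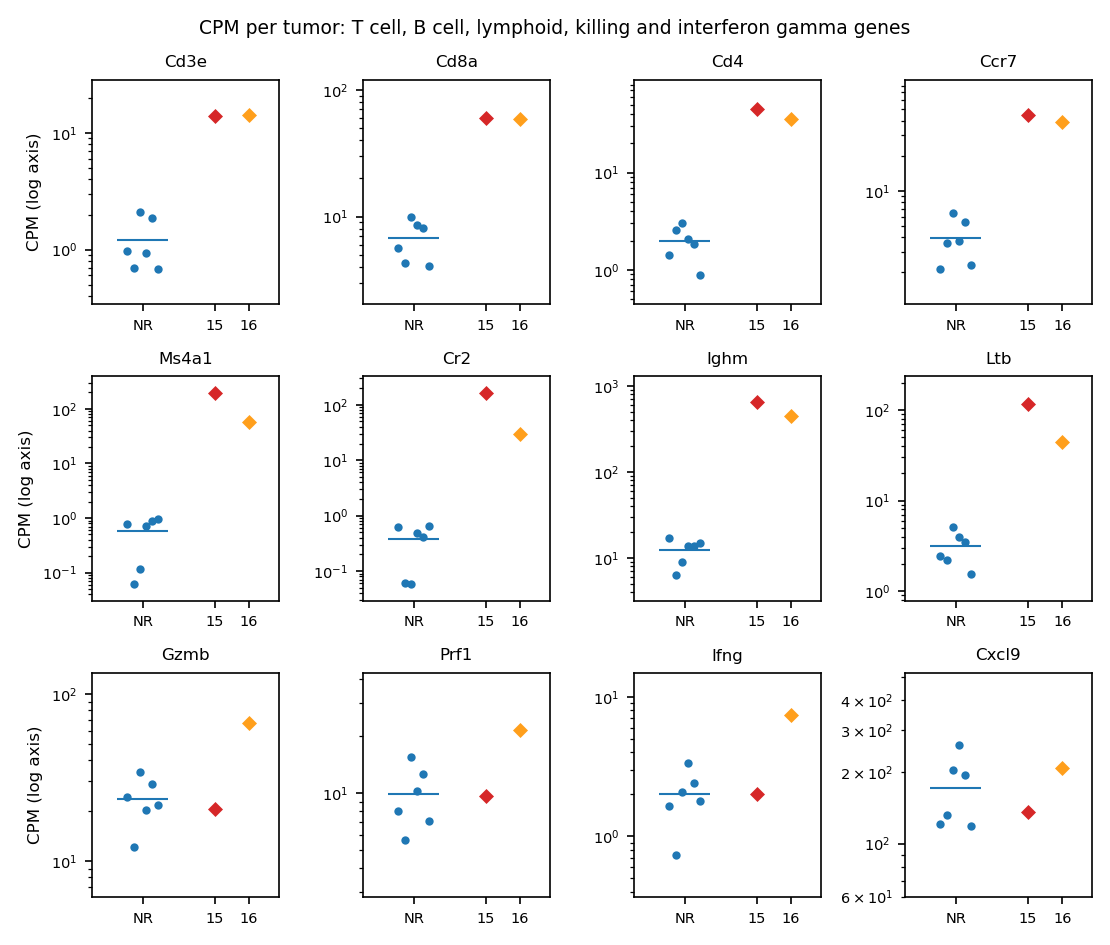
CPM on a log axis for 12 genes in the 6 non-responders (blue points, NR, the bar is their mean), responder 15 (red diamond) and responder 16 (orange diamond). Both responders lie above every non-responder for Cd3e, Cd8a, Cd4, Ccr7, Ms4a1, Cr2, Ighm and Ltb, whereas for Gzmb, Prf1 and Ifng responder 15 lies among the non-responders and for Cxcl9 both do.

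B cell genes had the largest median change of the 32 lists. All 13 B cell genes tested were called higher, with a median log2 fold change of 6.86 and median differences of 7.51 in responder 15 and 5.63 in responder 16, and responder 15 was the higher for each. Their summed level was 1724 CPM in responder 15 and 470.2 in responder 16, against 28.4 to 38.8 in the non-responders and 22.2 to 43.3 in the IgG tumors. Ms4a1 (chr19:11249675-11266241), which encodes the B cell surface protein CD20, was at 195 and 57.6 CPM against a lowest, median and highest of 0.0608, 0.751 and 0.948. Cr2, the complement receptor of mature and follicular B cells and of follicular dendritic cells, was at 162 and 29.7 against 0.0576, 0.446 and 0.644. On the log2 CPM scale the differences from the non-responder mean were 8.65 and 6.89 for Ms4a1 and 8.88 and 6.44 for Cr2, a wider gap between the responders than for Cd3e, at 3.61 and 3.63. Ebf1, which also marks fat cell precursors and stroma, had the smallest change, 1.18 ± 0.24, and without responder 15 its adjusted p was 0.462. All 13 were called with responder 15 alone and 12 with responder 16 alone.

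Antibody genes followed. Immunoglobulin segments took 0.362% and 0.229% of the counts in responders 15 and 16 against 0.000836% to 0.00309% in the non-responders (exact permutation p = 0.0357). T cell receptor segments took 0.0101% and 0.00963% against 0.000633% to 0.00116% (exact permutation p = 0.0357), and both p were 0.0595 after adjustment over the 5 library properties. Ighm, the constant region of IgM, was at 647 and 447 CPM against 6.35, 13.7 and 17.2 in the non-responders. Ighd, of the IgD that naive B cells carry, was at 272 and 77.8 against 0.0304, 0.879 and 1.099, and Ighg1, of a class-switched antibody, at 731 and 427 against 0.173, 2.90 and 3.45. Ighg2c, of another switched class, was the exception in order, with 218 CPM in responder 15 and 258 in responder 16, and its non-responder maximum of 8.27 came from 1 tumor. These 4 and Igkc are the 5 tested constant genes with the highest mean count over the aPD-1 tumors, a mean that the responders dominate. All 5 were called higher, with log2 fold changes from 5.45 to 8.07, and because of that choice nothing is read from their number. Reads of these closely related segments may be divided between them with some uncertainty.

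Of 9 plasma cell genes, 6 were called higher and Xbp1 passed by adjusted p only, with a median log2 fold change of 4.47 over the list and median differences of 4.61 and 3.94. Jchain, which joins IgM and IgA molecules, was at 382 and 269 CPM against 0, 1.28 and 2.54, and Mzb1, which assists antibody secretion, at 67.5 and 54.0 against 0.0304, 0.266 and 0.373. Prdm1 and Sdc1, plasma cell markers that other cell types make too, were at 14.04 and 20.9 CPM against 16.8 to 25.8 and at 53.0 and 72.3 against 47.8 to 86.4. Both responders lay inside the range of the non-responders for Sdc1, and for Prdm1 responder 15 lay below it. Of 8 germinal center genes, 5 were called higher and Fas passed by adjusted p only, with a median log2 fold change of 3.69 and median differences of 4.16 and 2.12. Cxcr5, the receptor for CXCL13, was at 51.8 and 14.1 CPM against 0.135 to 0.336. Bcl6 and S1pr2, which germinal center B cells share with other cell types, did not pass (log2 fold changes 0.35 ± 0.31 and -0.23 ± 0.17). Xbp1 no longer passed without responder 15 (adjusted p = 0.317), nor Fas without responder 15, responder 16 or non-responder 10 (0.244, 0.0848 and 0.0502). With responder 15 alone 6 plasma cell and 5 germinal center genes were called, and with responder 16 alone 5 and 3.

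Most chemokine and lymphotoxin ligands that organise lymphoid tissue were higher as well, and the lymphotoxin receptor Ltbr was not. Of 9 tested genes of lymphoid chemokines and lymphotoxin, of 10 listed, 7 were called higher, with a median log2 fold change of 3.73 and median differences of 4.57 and 3.16. Ltb, the membrane anchor of lymphotoxin, was at 117 and 44.4 CPM against 1.56, 2.95 and 5.13, and Lta, its partner subunit, at 8.45 and 2.70 against 0.182, 0.427 and 0.591. The receptor gene Ltbr lay below all non-responders instead, at 40.3 and 36.5 CPM against 44.6, 49.9 and 68.5, and did not pass (log2 fold change -0.47 ± 0.21, adjusted p = 0.14, and 0.0179 without IgG tumor 1). Cxcl13, which draws B cells into follicles, was at 47.1 and 14.7 CPM against 0.243, 0.434 and 1.80, and Ccl19, which draws T cells and dendritic cells, at 29.7 and 19.8 against 0.0864, 0.112 and 0.329. Ccl21a was at 157 and 64.2 against 0, 0.624 and 3.11; both symbols have near copies in the annotation, so the division of their reads is uncertain. Cxcl12, a chemokine of stroma, was called (log2 fold change 3.43 ± 0.86, adjusted p = 0.00911) but not without responder 15 (adjusted p = 0.245). Ccl20, at 0.414 CPM in responder 15 and at most 0.115 in the other 7 tumors, was too scarce to be tested. Single-responder fits called 7 of these genes for responder 15 and 5 for responder 16.

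Of 6 high endothelial venule genes, 5 were called higher, with a median log2 fold change of 4.04 and median differences of 4.48 and 2.49. Glycam1, a mucin-like protein of these vessels, was at 184 CPM in responder 15 and 30.6 in responder 16, against 0, 0.401 and 0.580 in the non-responders and at most 1.02 in the IgG tumors. Chst4, a sulfotransferase of these vessels, was at 2.99 and 0.928 CPM and was counted in 1 of the 6 non-responders, at 0.0506; edgeR called it and DESeq2 did not (adjusted p = 0.126). Madcam1, an adhesion molecule of mucosal venules, was at 1.98 and 0.337 CPM against at most 0.135, and its adjusted p of 0.0102 was 0.476 without responder 15. Gcnt1, which many cells make, did not pass, at 82.9 and 71.0 against 72.8 to 97.4 CPM (adjusted p = 0.78). With responder 15 alone 5 of the 6 were called and with responder 16 alone 3. The 2 responders cannot pass the filter on 8 tumors alone. With it 10 of 13 B cell, 7 of 9 plasma cell, 5 of 8 germinal center and 3 of 6 venule genes were tested. Of these 10, 4, 2 and 2 were called higher. Of the T cell receptor signaling genes 11 of 12 were tested and 10 called. Of the inhibitory receptor list 8 of 9 were tested and 4 called, and of the lymphoid chemokine list 8 of 9 and 6.

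Ltb and Madcam1 share a short sequence before their start, which the choice of the gene lists did not use. The stretches of these genes are shown because they hold it, and the calls played no part in that choice. The RefSeq promoter windows (GRCm38.p6) cover 16 genes of the lymphoid chemokine and high endothelial venule lists in 20 windows. An NF-kB-type motif of 10 letters was looked for on both strands in the 250 bases before each RefSeq start. It was chosen after these sequences had been searched, so its shares are a description and nothing is read from their difference. It is GGAAAGTCCC, or the reverse complement, with any letter allowed at the sixth position. It occurred in 2 of the 20 windows (10%), those of Ltb and Madcam1, and in 117 of all 32851 windows (0.356%). The Ltb stretch, chr17:35194257-35194438 on the plus strand, is the part of the 250 bases searched that ends 1 base before the gene as GENCODE annotates it (182 bases), and the Madcam1 stretch is chr10:79664309-79664558 on the plus strand. Both are written 5′ to 3′ with the match in capitals.
Ltb: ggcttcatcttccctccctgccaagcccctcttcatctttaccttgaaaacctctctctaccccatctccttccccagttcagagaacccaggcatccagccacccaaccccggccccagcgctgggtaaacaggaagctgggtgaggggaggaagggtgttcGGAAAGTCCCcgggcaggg
Madcam1: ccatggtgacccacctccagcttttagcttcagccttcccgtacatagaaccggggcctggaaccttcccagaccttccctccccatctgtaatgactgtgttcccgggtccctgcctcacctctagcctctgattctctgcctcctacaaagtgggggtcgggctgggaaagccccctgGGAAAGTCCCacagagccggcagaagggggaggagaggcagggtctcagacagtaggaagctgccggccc
The match is the same in both genes and lies 19 to 10 bases before the end of the Ltb stretch and 70 to 61 bases before the end of the Madcam1 stretch. It is a description of these letters, and no binding was measured.

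Fat cell genes and some epithelial genes were higher as well, while no keratinocyte or skeletal muscle gene passed. All 8 fat cell genes were called higher, with a median log2 fold change of 5.43 and median differences of 6.89 in responder 15 and 4.63 in responder 16. Their summed level was 2813 CPM in responder 15 and 553 in responder 16, against 29.9 to 121 in the non-responders and 20.3 to 178 in the IgG tumors. Adipoq, which encodes the fat cell hormone adiponectin, was at 189 and 31.0 CPM against 0.152, 1.09 and 5.41, and Fabp4, a fatty acid carrier, at 689 and 129 against 18.02, 22.4 and 37.0. No fat cell gene was at 0 in a responder or a non-responder, and the groups did not overlap for any of the 8. With responder 15 alone 8 were called and with responder 16 alone 2, Adipoq no longer among them (adjusted p = 0.147). The part of fat cell RNA in the other differences was not tested.

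Of 11 genes listed under colon epithelium 8 were tested, with a median log2 fold change of 2.86 and median differences of 3.34 and 2.24. Of these, 4 were called higher (Krt8, Krt18, Krt19 and Epcam), Cdh1 passed by adjusted p only and the other 3 did not pass. The keratin gene Krt8 was at 31.9 and 13.1 CPM against 0.0304, 0.233 and 1.03 in the non-responders and at most 1.37 in the IgG tumors, and Epcam, an epithelial adhesion molecule, at 10.6 and 5.32 against 0.0608, 0.354 and 0.720. Without responder 15 the adjusted p of Krt18 was 0.0742, and Cdh1 did not pass without responder 15, responder 16 or non-responders 10 or 14 (0.361, 0.0782, 0.0659 and 0.0502). In the non-responders these defining epithelial genes were thus near 0, although the line is labelled a colorectal carcinoma. The gut transcription factor gene Cdx2 was at 0 in all 8 aPD-1 tumors, and Cdx1 and Vil1 were at no more than 0.0864 and 0.283 CPM in any of them. These gut genes were too scarce to be tested. The genes that passed are not particular to colon, so the list does not show RNA of colon epithelium in the responders. The 7 tested keratinocyte genes had a median log2 fold change of -0.34 (median differences 0.97 and 0.44), and the 8 skeletal muscle genes one of -1.81 (-2.45 and -0.38). None of either list passed in edgeR, with 1 keratinocyte and 0 muscle genes at an unadjusted p under 0.05 and 0 called by DESeq2. The summed muscle level was 3.64 to 14.6 CPM in the responders and 3.90 to 84.98 in the non-responders, and the summed keratinocyte level 9.36 to 11.9 against 5.41 to 54.1, and the groups overlapped for both sums. The part of epithelial RNA in the other differences was not tested.

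**Figure D3:**
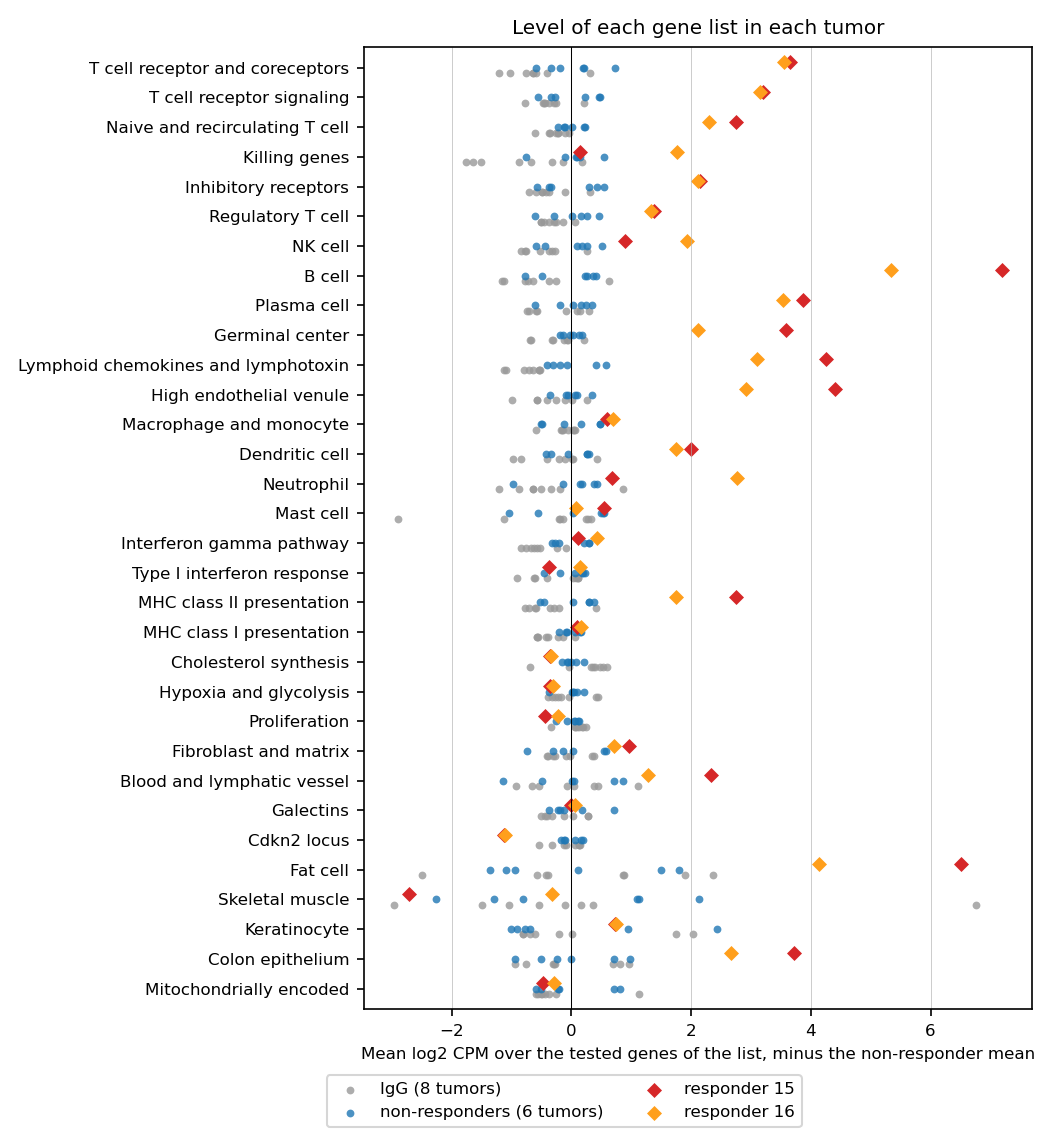
For each of 32 gene lists, the mean log2 CPM over its tested genes in every tumor, minus the mean of the 6 non-responders (x axis), with IgG tumors in grey, non-responders in blue, responder 15 in red and responder 16 in orange. Both responders lie furthest to the right for B cell and fat cell genes, responder 16 lies to the right of responder 15 for killing, NK and neutrophil genes, and both lie left of the non-responders for the Cdkn2 locus.

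Of 15 macrophage and monocyte genes only Mrc1 was called higher, a share near the 12.5% of all genes. The median log2 fold change was 0.44 and the median differences were 0.09 and 0.40. C1qa, of the complement that resident macrophages make, was at 345 and 302 CPM against 274, 319.6 and 401, inside the range of the non-responders. Mrc1, the mannose receptor, was at 206 and 126 against 25.8, 54.8 and 83.3, above all of them (adjusted p = 0.0288, and 0.425 without responder 15), and the call was also lost without responder 16. Its adjusted p was also 0.0541, 0.0507 and 0.0517 without non-responders 10, 14 and 9. Arg1, the arginase of suppressive macrophages, went opposite ways, at 109 CPM in responder 15 and 703 in responder 16 around a non-responder range of 136 to 344; it did not pass (adjusted p = 0.353), and with responder 16 alone its log2 fold change was 1.39 (adjusted p = 0.0339).

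Dendritic cell genes were higher, 8 of 12 by call and Zbtb46 by adjusted p only, with a median log2 fold change of 1.95 and median differences of 2.02 and 1.89. Flt3, the growth factor receptor of dendritic cell precursors, was at 13.04 and 10.9 CPM against 0.508, 1.17 and 1.98. Xcr1 and Clec9a mark the dendritic cells that cross-present antigen to CD8 T cells, and stood at 7.72 and 5.65 against 0.972 to 2.58 and at 6.03 and 6.86 against 1.37 to 2.38. Siglech, of plasmacytoid dendritic cells, was at 8.22 and 5.65 against 0.102 to 0.456. Without responder 15 the adjusted p of Xcr1 was 0.0728 and that of Zbtb46 0.275. Single-responder fits called 7 of the 12 for responder 15 and 5 for responder 16.

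Of 8 tested neutrophil genes, 2 were called higher, Cxcr2 and Retnlg, beside 12.5% over all genes. With the filter on 8 tumors, which the 2 responders cannot pass alone, 6 were tested and 0 called, so nothing is read from these calls. The median differences of the list were 0.35 in responder 15 and 3.14 in responder 16, with a median log2 fold change of 1.996. S100a8, which encodes an abundant protein of neutrophils, was at 0.325 and 4.25 CPM against 0, 0.403 and 1.14, above the non-responders in responder 16 only, and Ly6g was at 0 in all 8 aPD-1 tumors. Cxcr2, a chemokine receptor of neutrophils, was alike in the pair at 4.85 and 4.58 against 0.0610 to 0.202. Retnlg rested on both responders (adjusted p = 0.0273, 0.064 without responder 15, 0.549 without responder 16 and 0.0837 in DESeq2). Of 8 mast cell genes only Kit was called higher, which is the share over all genes (12.5%), with a median log2 fold change of 1.12 and median differences of 1.51 and 0.06; without responder 15 its adjusted p was 0.449. DESeq2 called 2 mast cell genes lower, and edgeR 1 with responder 15 alone.

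The genes listed as targets of interferon gamma did not pass the test. Of 17 genes listed for the pathway 0 were called in edgeR or in DESeq2 and 3 passed by adjusted p (Jak1, Jak2 and Ifngr1), the same number as at an unadjusted p under 0.05, with a median log2 fold change of 0.19 and median differences of -0.10 and 0.51. Those 3 are receptor and kinase genes of the pathway. Cxcl9, a chemokine for T cells and a target of interferon gamma, was at 136 CPM in responder 15 and 208 in responder 16 against 119, 163 and 259.7 in the non-responders (log2 fold change 0.00 ± 0.32), and at 56.3 to 126 in the IgG tumors. Cd274, which encodes the PD-1 ligand PD-L1, was at 70.9 and 150.1 against 61.0, 74.6 and 107, with a log2 fold change of 0.50 ± 0.28 that was -0.19 without responder 16. Jak1, a kinase of the receptor, was above all non-responders at 333 and 282 CPM against 109, 178 and 199.9 (adjusted p = 0.0148, and 0.287 without responder 15). Jak2 and Ifngr1 no longer passed without responder 15 (adjusted p of 0.219 and 0.655) or responder 16 (0.177 and 0.105), nor without non-responder 10 (0.0558 and 0.15). Ifngr1 was also lost without non-responders 9, 11, 12 or 14 (0.0609, 0.0549, 0.0644 and 0.0554). Of 12 genes of the type I interferon response 0 passed in edgeR, 0 had an unadjusted p under 0.05 and 0 were called by DESeq2, with a median log2 fold change of -0.15 and median differences of -0.43 and 0.23.

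Antigen presentation divided by class. Of 10 class II genes 5 were called higher and H2-DMa passed by adjusted p only, with a median log2 fold change of 1.11 and median differences of 1.49 and 0.84. H2-Ob, a subunit of the class II modulator that B cells make, was at 179 and 50.2 CPM against 1.00, 2.08 and 2.99, and Ciita, the master activator of class II genes, at 93.9 and 38.8 against 6.06, 10.4 and 14.6. The classical genes differed less: H2-Aa was at 894 and 622 against 240.3, 390.5 and 502 (log2 fold change 1.04 ± 0.35), and its adjusted p of 0.0429 was 0.528 without responder 15 and 0.0678 without responder 16. Leaving out IgG tumor 1 or non-responders 9, 10, 13 or 14 gave it 0.0514, 0.0567, 0.0992, 0.0552 and 0.0764. H2-DMa did not pass without responder 15 (0.502). Of 13 class I genes only H2-T23, a non-classical class I gene, was called higher (log2 fold change 1.15 ± 0.29, adjusted p = 0.00941, and 0.215 without responder 15). The median log2 fold change of the class I list was 0.07, with median differences of 0.08 and 0.10. B2m, the light chain of every class I molecule, was at 2195 and 2353 CPM against 2376, 2884 and 3601, with a log2 fold change of -0.37 ± 0.21 (adjusted p = 0.262).

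Of 10 vessel genes 4 were called higher (Pecam1, Kdr, Tek and Prox1), beside 12.5% over all genes. With the filter on 8 tumors 9 were tested and 3 called. The median log2 fold change of the 10 was 1.29, with median differences of 1.80 and 0.98, and responder 15 was the higher for all 10. Prox1, the transcription factor that defines lymphatic endothelium, was at 4.64 and 2.92 CPM against 0, 0.164 and 0.456, and Pecam1, a marker of all endothelium, at 189 and 109 against 19.4, 52.0 and 75.3. Without responder 15 no vessel gene was called, and the adjusted p of Prox1 and Pecam1 were 0.0513 and 0.349, and those of Tek and Kdr 0.569 and 0.639. Kdr was also lost without non-responders 9, 10, 12 or 14 (0.0566, 0.0562, 0.0617 and 0.0504). Of 13 fibroblast and matrix genes 2 were called higher, Lum and Thy1, a share near the 12.5% of all genes, with a median log2 fold change of 0.53 and median differences of 0.91 and 0.55. Thy1, which T cells carry as well as fibroblasts, was at 124 and 81.9 CPM against 9.89, 19.9 and 41.4, and Col3a1, a collagen of connective tissue, at 4398 and 4183 against 3744, 4056 and 5047. Neither Lum nor Thy1 passed without responder 15 (adjusted p of 0.159 and 0.0721).

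**Figure D4:**
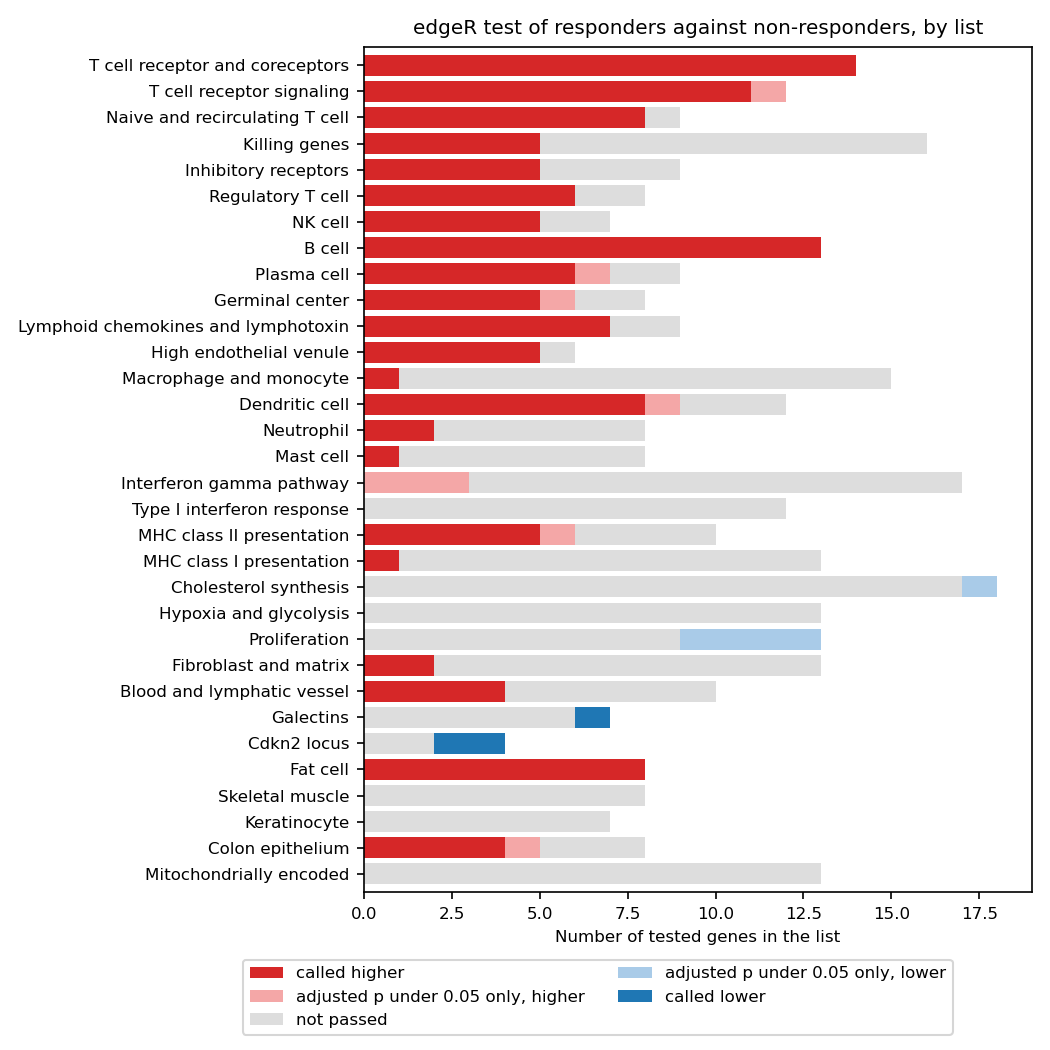
For each of 32 gene lists, the number of tested genes (x axis) called higher in responders (red), passing by adjusted p alone (pale), not passing (grey) or called lower (blue) in edgeR. The 14 T cell receptor, 13 B cell and 8 fat cell genes are red throughout. Full blue appears for the galectins and the Cdkn2 locus only, and pale blue (lower) for cholesterol synthesis and proliferation only.

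Genes lower in the responders were few. The 10 protein-coding genes of smallest p among those called lower, by the same rule, were Trnp1, Cdkn2b, Lgals1, S100a4, Lrfn3, Hhipl1, Dusp14, Gng11, Gm9732 and Trib3, with log2 fold changes from -1.65 to -1.01. Trnp1 (chr4:133491100-133498550), a nuclear protein gene, was at 6.18 and 6.78 CPM against a lowest, median and highest of 11.3, 12.6 and 16.6 (log2 fold change -1.01 ± 0.16, adjusted p = 0.000162). S100a4, a calcium-binding protein of motile cells, was at 163 and 145 against 302, 322 and 475. Gng11, a G protein subunit, was at 116 and 102 against 209, 237 and 290.4. Trib3, a pseudokinase of the stress response, was at 49.7 and 71.5 against 93.2, 145 and 169, and its adjusted p was 0.0523 without responder 15. The rule required both responders to lie below every non-responder, and for all 10 they lay below every IgG tumor as well. The genes called lower together took 0.325% and 0.362% of the counts of the responders and 0.602% to 0.904% of those of the non-responders, while the genes called higher took 7.41% and 3.90% against 1.03% to 1.49%. Both sets were called on these same counts, so the shares describe their size and are no separate finding.

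Galectins bind sugars on cell surfaces, and galectin-1 and galectin-9 are known for restraining T cells. Of 7 tested galectin genes Lgals1 alone was called lower, beside 0.663% over all genes. The median log2 fold change of the list was 0.06, with median differences of 0.10 and 0.22. Lgals1 (chr15:78926725-78930465) was at 1016 and 1171 CPM against 1835, 2334 and 2572 in the non-responders and 1852 to 2732 in the IgG tumors, a log2 fold change of -1.06 ± 0.17 (adjusted p = 0.000309) that was called with either responder alone. Lgals9 was inside the range of the non-responders, at 101 and 101 CPM against 67.5 to 103. Lgals3 was below all non-responders at 298 and 403 against 569.8 to 652, with an adjusted p of 0.0736 that was 0.00438 with only the 8 aPD-1 tumors in the fit and 0.000879 without IgG tumor 1.

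The Cdkn2 locus on chromosome 4 encodes inhibitors of the cell cycle kinases CDK4 and CDK6. All 4 genes listed there lay below every non-responder in both responders, beside 13.2% over all genes, and 2 were called lower, beside 0.663%. Their median log2 fold change was -1.21, with median differences of -1.14 and -1.21. The list was chosen with earlier results of these data known, and Cdkn2b is also among the lower genes of smallest p named above. For these reasons nothing is read from the number of list members that were lower. Cdkn2b (chr4:89306299-89311039) was at 8.69 and 7.96 CPM against 18.7, 26.5 and 31.1, a log2 fold change of -1.65 ± 0.26 (adjusted p = 0.000235). The neighbouring non-coding gene Gm12606 (chr4:89235699-89273403) was at 4.88 and 4.39 against 10.8, 14.9 and 25.6 (adjusted p = 0.0216, 0.183 without responder 15 and 0.12 without responder 16). Cdkn2a and Mtap did not pass, with log2 fold changes of -0.78 ± 0.29 and -0.38 ± 0.17 (adjusted p of 0.0708 and 0.148). Without IgG tumor 1 both passed by adjusted p (0.0371 and 0.00912), as Cdkn2a did without non-responder 14 (0.049), and without IgG 1 and non-responders 9 and 14 together all 4 passed by adjusted p.

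**Figure D5:**
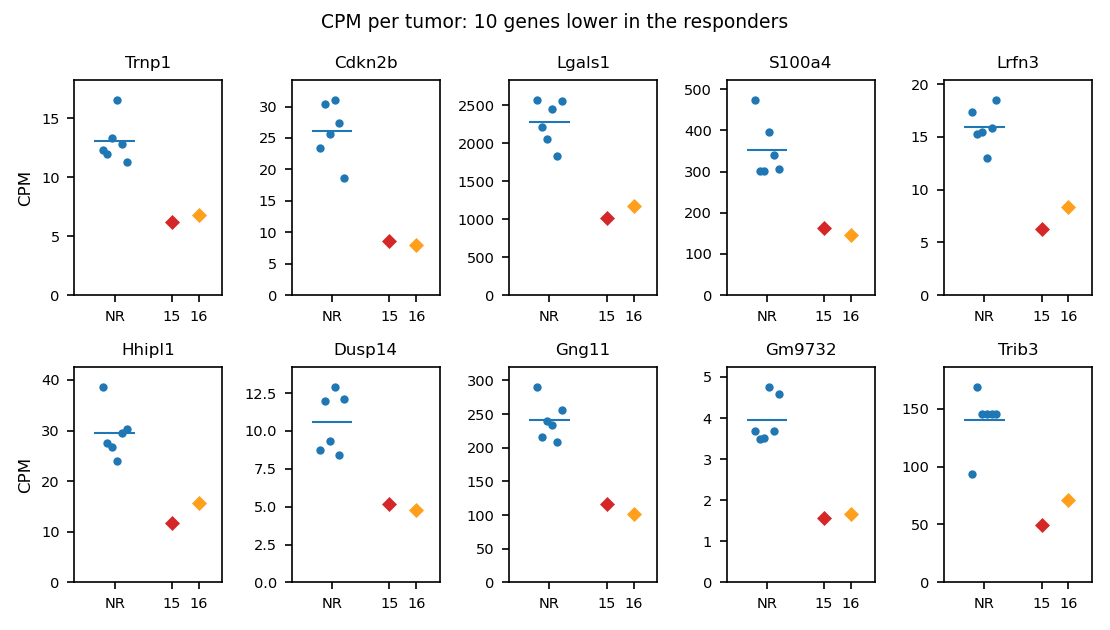
CPM on an axis from 0 for the 10 genes of smallest p called lower, in the 6 non-responders (blue points, NR, the bar is their mean), responder 15 (red diamond) and responder 16 (orange diamond). Both responders lie below all 6 non-responders in every panel, as the rule of choice required, for example at 1016 and 1171 CPM against at least 1835 for Lgals1.

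Cholesterol synthesis genes, which tumor and other dividing cells use to build membranes, did not pass in the main fit. Of the genes listed with them only Ch25h, which acts on cholesterol already made, was lower by adjusted p. The list also holds genes of sterol regulation and transport, so its counts and medians are not of synthesis enzymes alone. Of 18 genes 0 were called in edgeR or DESeq2, Ch25h passed by adjusted p and 7 had an unadjusted p under 0.05, all 7 lower, with a median log2 fold change of -0.31 and median differences of -0.32 and -0.29. Both responders lay below all non-responders for 9 of the 18, beside the 13.2% over all genes. Sqle, squalene epoxidase, was at 41.9 and 46.8 CPM against 61.3, 82.5 and 89.1 in the non-responders and 41.7 to 128 in the IgG tumors, a log2 fold change of -0.82 ± 0.30 (adjusted p = 0.0665). Fdps, which makes farnesyl diphosphate, was at 87.1 and 86.7 against 133, 151 and 199.6, and 64.6 to 274 in the IgG tumors. These p depended on which tumors entered the fit. With only the 8 aPD-1 tumors in the fit 7 of the 18 passed by adjusted p, without IgG tumor 1 also 7, without IgG 1 and non-responders 9 and 14 together 8, with DESeq2 4 and without responder 15 none. In the fit of the 8 aPD-1 tumors the adjusted p were 0.00625 for Sqle, 0.00867 for Cyp51 and 0.00484 for Fdps, with log2 fold changes of -0.86, -0.87 and -0.90, and without IgG tumor 1 they were 0.00269, 0.00419 and 0.0023. Ch25h, which makes 25-hydroxycholesterol, was at 22.7 and 25.3 CPM against 36.3, 43.6 and 46.2 (adjusted p = 0.00679, and 0.106 without responder 15). The summed level of the list was 643 to 647 CPM in the responders, 794 to 1127 in the non-responders and 508 to 1484 in the IgG tumors.

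Of 13 genes of hypoxia and glycolysis 0 passed in edgeR and 1 had an unadjusted p under 0.05, DESeq2 called 0, and the median log2 fold change was -0.38 with median differences of -0.42 and -0.31. Egln3, an oxygen sensor that hypoxia induces, was at 38.4 and 40.9 CPM against 47.6, 72.6 and 78.7 (log2 fold change -0.80 ± 0.28, adjusted p = 0.0526); without IgG tumor 1 or non-responders 9 or 10 its adjusted p were 0.0142, 0.0281 and 0.0493. Without the 3 tumors of high mitochondrial share (IgG 1 and non-responders 9 and 14) 5 of the 13 passed by adjusted p as lower, Pkm, Ldha, Pgk1, Egln3 and Eno1, with log2 fold changes from -0.97 to -0.50. Of 13 proliferation genes 0 were called in edgeR or DESeq2 and 5 had an unadjusted p under 0.05. Cdk1, Aurkb, Myc and Ccnd1 passed by adjusted p as lower, beside 4.34% over all genes. The median log2 fold change of the list was -0.33, with median differences of -0.43 and -0.15. Cdk1, the kinase that drives mitosis, was at 119 and 149.9 CPM against 191, 214 and 236 (log2 fold change -0.69 ± 0.15, adjusted p = 0.00259). Without responder 15 none of the 4 passed, with adjusted p of 0.0945, 0.0638, 0.172 and 0.0746. Without responder 16 Myc and Ccnd1 did not (0.0933 and 0.186), nor did Ccnd1 without non-responders 11 or 13 (0.0575 and 0.0551). Without IgG 1 and non-responders 9 and 14 together 9 of the 13 passed as lower in place of 4. Mki67, a general marker of cycling cells, was at 319 and 394 against 297, 382 and 446, inside the range of the non-responders. None of the 13 mitochondrially encoded genes passed in edgeR, was called by DESeq2 or had an unadjusted p under 0.05, and their median log2 fold change was -0.45, with median differences of -0.42 and -0.30.

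The responders also differed from each other, which is described without a test because each is 1 tumor. Of the genes called higher, responder 15 exceeded responder 16 by at least 1 on the log2 CPM scale for 979 and the reverse held for 54. Among genes averaging 100 counts or more, antigen receptor segments aside, the 8 furthest higher in responder 15 were Gm20388, Nnat, Plin4, Akr1c14, Lrg1, Hp, Pck1 and Pbp2. Plin4, which coats lipid droplets, was at 359 CPM in responder 15, 27.1 in responder 16 and 1.35 to 10.5 in the non-responders, and Pck1, an enzyme of glyceride and glucose synthesis in fat and liver, at 173, 18.7 and 0.243 to 4.86. Hp, haptoglobin, was at 1249, 126 and 5.46 to 62.0. Nnat, Plin4, Akr1c14, Lrg1, Hp and Pck1 passed in edgeR, and without responder 15 none of these 6 did, with adjusted p of 0.0533, 0.183, 0.99, 0.426, 0.416 and 0.127. Akr1c14 was also lost without any 1 of non-responders 9, 10, 11, 12 and 14, at adjusted p from 0.051 to 0.0728, and Pbp2 passed as lower without responder 15 (0.0243). Gm20388, a long gene model that overlaps other genes, held 7.95 CPM in responder 15, 0 in responder 16 and from 0 to 102 in the non-responders, so its reads cannot be placed with certainty.

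The 8 genes furthest higher in responder 16 were 2210418O10Rik, Chil3, Myh4, Cxcl2, Olfr810, Prl2c3, Gzma and Clec7a. Chil3, a chitinase-like protein of activated macrophages and neutrophils, was at 122 CPM in responder 16, 3.81 in responder 15 and 2.24 to 8.61 in the non-responders. It was called higher (log2 fold change 3.57 ± 0.91, adjusted p = 0.0106) through responder 16, without which its log2 fold change was -0.52. Clec7a, the receptor dectin-1 of myeloid cells, was at 169 in responder 16, 23.4 in responder 15 and 19.3 to 64.1, and Cxcl2, a chemokine that draws neutrophils, at 9.84, 0.739 and 1.89 to 4.50. Prl2c3 passed without responder 15 (adjusted p = 0.0268), and 2210418O10Rik, at 0 in responder 15, passed without responder 16 (0.0436). Responder 16 thus stood above the non-responders for Gzma, Chil3, Clec7a and Cxcl2, and responder 15 did not.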

How the data were processed

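Bulk RNA-seq profiles of 16 MC38 tumors were used, 8 IgG, 6 aPD-1 non-responders and 2 aPD-1 responders, grouped by their GEO labels. The deposited expected counts per gene had been made by the authors from strand-specific poly(A) libraries with STAR 2.6 and RSEM 1.3.0 on GRCm38, and RSEM divides reads shared by similar genes. They were rounded to whole numbers (7.84% were not whole), and the 92 entries naming no gene, at most 185 counts in a tumor, were left out. Of 53465 genes, 53360 matched the GENCODE M21 annotation of the same build, which gave positions and types. Totals were 26603477 to 39948874 counts, and no pair of libraries agreed within sampling noise (over 120 pairs the smallest chi-square, divided by its degrees of freedom, was 16.5).

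All 16 tumors were fitted as 3 groups with edgeR 4.0.16 in R 4.3.3 (TMM scaling, filterByExpr, robust quasi-likelihood), with the contrast responder minus non-responder and Benjamini-Hochberg adjustment over all genes. CPM used TMM-scaled totals, and log2 CPM a prior count of 2. The procedure was tested on simulated data. Alternatives were DESeq2 1.42.0, median-of-ratios scaling, other filters, fewer tumors in the fit, the removal of immunoglobulin genes and the removal of each aPD-1 tumor or IgG 1. The removal of IgG 1 with non-responders 9 and 14 was chosen after the data were seen.

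The members, the 32 lists (344 genes) and the rule for named genes were chosen with earlier results of these data known. Named genes are the list members, the 10 called genes of smallest p in each direction (protein-coding, mean of at least 100 counts, both responders beyond all non-responders), the 8 furthest apart between the responders in each direction, and 5 immunoglobulin constant genes. Each tumor came from its own mouse, and the responder spread rests on 2 tumors. A few genes of the lists are not reported here by name.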

Additional observations from a re-analysis of the deposited data

Results flagged for a closer look

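Among 146 genes named in the text, 10 had 1 non-responder far from the other 5 by Dixon's test at the 95% level, which chance alone gives for about 1 in 20 groups. The highest non-responder stood apart for Lef1 (14.8 CPM, next 8.24), Ighg2c (8.27, next 1.34), Cxcl13 (1.80, next 0.720), Chst4 (0.0506, next 0), Krt18 (1.54, next 0.547), Myc (157 CPM, next 107), Pck1 (4.86, next 1.90) and Pbp2 (11.5, next 5.34). The lowest non-responder stood apart for Trib3 (93.2 CPM, next 145) and Egln3 (47.6, next 68.3). For Lef1 and Pbp2 the far non-responder lay above at least 1 responder, and for the other 8 genes the groups did not overlap. The responders, being 2, cannot be examined in this way.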

How the results depend on the processing

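The direction of the comparison, with more genes higher than lower, held under each alternative run. With at least 10 counts in at least 8 tumors 1515 genes were called higher in place of 2286. Leaving out 1 tumor, of the 8 aPD-1 tumors and IgG 1 (IgG 2 to 8 were not left out), gave 895 to 2392 genes called higher and 37 to 239 called lower, 895 and 37 without responder 15, 202 lower without responder 16 and 239 lower without IgG tumor 1. Of list members, 126 were called higher and 3 lower, with 86 to 130 and 2 to 5 when 1 tumor was left out, and 5 lower with DESeq2 and also without IgG 1 and non-responders 9 and 14 together. DESeq2 called 2248 genes higher and 169 lower, of which 2177 and 119 were shared with edgeR. Of the 146 genes named, 105 passed. Without responder 15, 45 of these no longer passed and 3 others did; without responder 16 the figures were 17 and 1, and 18 changed sign, none of which but Chil3 had passed. No paired analysis was possible because the groups share no replicate numbers.

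Log2 fold changes that changed sign when 1 tumor was left out ran from -0.25 to 1.43 for Gzmb, -0.085 to 1.06 for Prf1, -0.049 to 1.81 for Ifng, -1.29 to 1.39 for Arg1, -0.83 to 2.85 for S100a8, -0.19 to 0.88 for Cd274, -0.52 to 4.46 for Chil3, -2.07 to 1.64 for Cxcl2, -2.35 to 1.28 for Olfr810, -0.93 to 2.21 for Prl2c3, from -1.07 to 1.76 for Clec7a, -0.19 to 0.051 for C1qa, -0.074 to 0.093 for Col3a1, -0.38 to 0.21 for Cxcl9, -0.92 to 0.62 for Gzmc, -1.06 to 1.12 for Gzmd, -0.96 to 1.38 for Gzme, -1.27 to 1.04 for Gzmf, -1.03 to 1.33 for Gzmg and -0.49 to 0.23 for Havcr2. C1qa was 0.0045 with at least 10 counts in at least 8 tumors. Without the filter on low counts Col3a1 was -0.045 and Cxcl9 -0.079, with only the 8 aPD-1 tumors -0.0014 and -0.028, and without IgG 1 and non-responders 9 and 14 together -0.079 and -0.25, where Gm20388 was 4.36. The causes were not tested. Depth limits the genes near 0 in the non-responders, which rest on few counts there.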

Other observations

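A few genes placed the responders on opposite sides of the non-responders. Responder 15 lay above all 6 and responder 16 below all 6 for 79 genes, and the reverse held for 99, of 18251 tested. Each responder taken singly lay above all 6 for 5743 (15) and 4867 (16) genes and below all 6 for 4172 and 3334.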
